A study of Homo sapiens with 6 samples.

Results

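The genes described here encode the core of the human RNA interference machinery. They were taken as 10 named genes, DROSHA, DGCR8, XPO5, DICER1, TARBP2, AGO1, AGO2, AGO3, AGO4 and TNRC6A, by the gene symbol that the platform annotation gives each probe set. Of these 10 genes, 9 had a probe set among the 15669 genes named in the table, with 1 probe set each. DGCR8 had no value in the table analysed here.

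Gene expression was read on 6 microarrays, 2 in each of 3 groups, all of the human cell line MDA-MB-231, which was established from a triple-negative breast cancer. In the first pair of groups, a lentivirus delivered a short hairpin RNA against S100A10, either the hairpin named shS100A10_5 or the hairpin named shS100A10_1. In the third group, the cells carried the control hairpin shNCT. All cells, the controls included, carried a hairpin and grew in RPMI1640 with 10% serum and puromycin at 2.5 µg/ml, and no hairpin-free cells were analysed here. The labels name neither separate cultures for the 2 arrays of a group nor whether a line was a pool or a clone, so the p-values rest on the spread within these pairs of arrays alone, part or all of which may be technical.

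MicroRNAs are made in steps. In the nucleus, the ribonuclease DROSHA with its partner DGCR8 cuts the primary transcript to a hairpin, and exportin-5 (XPO5) carries that hairpin to the cytoplasm. There DICER1, with the RNA-binding partner TARBP2, cuts it to a short duplex, and 1 strand is loaded into an Argonaute protein. Argonautes (AGO1 to AGO4) recognise target messages and recruit TNRC6A, a GW182 protein that brings in deadenylation and decapping enzymes. Hairpins expressed from a vector enter the same route at the export and Dicer steps, which makes these genes part of the method as well as of the cell.

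AGO4, AGO1 and AGO3 lie next to each other, in that order and on the same strand, on chromosome 1. They are shown because the estimated changes of these neighbours with shS100A10_5, given below, ran from negative to positive. No difference between these changes was tested. The sequences are the 250 bases before the RefSeq start of each gene (GRCh38.p14, + strand, 5′ to 3′), at chr1:35807766-35808015 for AGO4, chr1:35882959-35883208 for AGO1 and chr1:35930855-35931104 for AGO3. Capitals mark matches on either strand to any of 6 searched motifs.
AGO4: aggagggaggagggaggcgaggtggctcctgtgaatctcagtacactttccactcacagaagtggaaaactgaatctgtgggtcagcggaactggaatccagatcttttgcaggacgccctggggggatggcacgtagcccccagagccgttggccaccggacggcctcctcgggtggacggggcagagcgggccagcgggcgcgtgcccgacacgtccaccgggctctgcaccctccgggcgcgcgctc
AGO1: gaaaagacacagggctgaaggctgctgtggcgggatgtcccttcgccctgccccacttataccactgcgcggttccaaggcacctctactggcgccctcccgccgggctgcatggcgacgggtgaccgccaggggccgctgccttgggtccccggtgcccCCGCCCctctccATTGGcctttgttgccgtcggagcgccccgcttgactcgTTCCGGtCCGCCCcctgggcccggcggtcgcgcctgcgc
AGO3: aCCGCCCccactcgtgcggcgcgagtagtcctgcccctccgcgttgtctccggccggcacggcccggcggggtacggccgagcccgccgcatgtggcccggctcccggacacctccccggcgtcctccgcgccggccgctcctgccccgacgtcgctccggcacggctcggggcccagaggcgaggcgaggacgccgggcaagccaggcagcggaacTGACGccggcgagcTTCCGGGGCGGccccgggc

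The motifs were the GC box GGGCGG, the ETS core CCGGAA, the CCAAT box CCAAT and the E-box CACGTG. The cAMP response half-site TGACG and the TATA box TATAAA were also searched. The AGO3 window held 2 GC boxes, 1 ETS core and 1 cAMP response half-site, and a GC box overlaps the ETS core there. The AGO1 window held 2 GC boxes, 1 ETS core and 1 CCAAT box. The AGO4 window held none of the 6. Among 35116 RefSeq windows of the same length, 42.6% held a GC box, 14.5% an ETS core and 32.0% a CCAAT box. An E-box was in 6.34% of them, a cAMP response half-site in 21.2% and a TATA box in 10.7%. GC content was 80.0% for AGO3, 71.6% for AGO1 and 66.4% for AGO4, against a median of 58.0% over all windows. The AGO3 window had 41 CpG dinucleotides, AGO1 25 and AGO4 20, against a median of 11. These are descriptions of letters only and say nothing of which factors act there.

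S100A10, the targeted gene, had intensities of 13565 and 9460 with shS100A10_5 and 1969 and 1545 with shS100A10_1, against 88860 and 92938 with shNCT. Both hairpin groups lay below the controls, and the log2 change was -3.00 with shS100A10_5 and -5.70 with shS100A10_1 (limma, adjusted p = 0.000442 and 1.71e-06). The hairpins also differed from each other, by 2.70 on the log2 scale (adjusted p = 0.00102). Median intensity was between 232 and 238 on all 6 arrays. Of the markers fixed for this line, all 10 were measured, and 8 lay above the upper quartile of probe set means, among them vimentin (VIM, log2 16.3 to 16.7) and CD44 (13.7 to 13.9). E-cadherin (CDH1) was at log2 3.15 to 4.05, below the lower quartile of 4.98, while the epithelial marker EPCAM was at 9.87 to 10.8. The leukocyte markers PTPRC and CD14 were at 5.11 to 5.83 and 5.87 to 6.53, and no detection call says whether such levels are background. By their means, 2 of 8 leukocyte markers lay below the lower quartile and 1 above the upper quartile. Of 8 luminal epithelial markers, 3 lay below and 2 above, and of 6 fibroblast markers, 3 lay below and 0 above. Of 8 leukocyte markers measured, only the lysozyme gene LYZ changed in either comparison with the controls, and it rose (log2 change 1.35 with shS100A10_5 and 1.56 with shS100A10_1; limma, adjusted p = 0.00865 and 0.00869). The summed intensity of those 8 was 4755 to 6203 with shS100A10_5 and 7788 to 8210 with shS100A10_1, against 6640 to 6891 with shNCT. Of 8 luminal epithelial markers (summed intensity 56950 to 67360 with shS100A10_5 and 54450 to 57440 with shS100A10_1, against 58810 to 61080 with shNCT) and 6 fibroblast markers (871.8 to 1108 and 778.3 to 952.9, against 827.5 to 860.8 in the same order of groups), 0 passed limma's threshold against the controls. Over all probe sets, 3.18% passed that threshold with shS100A10_5 and 0.189% with shS100A10_1. Of the line's own markers, LGALS1 fell with shS100A10_5 (log2 change -0.87, limma adjusted p = 0.0483). The part of these marker changes in the results below was not tested.

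With shS100A10_5, 1 of the 9 measured genes changed by limma's moderated test after Benjamini-Hochberg adjustment over all 16965 probe sets (adjusted p under 0.05), against 3.18% of all probe sets (1.43% higher and 1.75% lower). It was AGO3, which rose 1.79-fold. DICER1, 1.63-fold higher, lay just outside the threshold (adjusted p = 0.0532). Without adjustment, 6 of the 9 had a p under 0.05, against 21.0% of all probe sets. AGO3 and DICER1 were higher, as were 10.7% of all probe sets at that p, and DROSHA, XPO5, TARBP2 and AGO4 were lower, as were 10.3%. For the same 6 genes the 2 shS100A10_5 arrays did not overlap the 2 shNCT arrays, as was the case for 50.5% of all probe sets (26.7% higher and 23.8% lower). The median log2 change of the 9 genes was -0.14, against 0.025 over all probe sets, and 4 of the 9 changes were positive, against 53.3% of all. In a bulk RNA sample, a change in the share of cells with a high level and a change in every cell cannot be told apart.

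With shS100A10_1, 0 of the 9 genes passed limma's threshold, against 0.189% of all probe sets, and 0 had an unadjusted p under 0.05, against 8.44%. The smallest adjusted p was 0.64, for DICER1. Changes ran between -0.46 for AGO4 and 0.34 for DICER1 on the log2 scale, with a median of -0.11, against 0.006 over all probe sets, and 3 of the 9 were positive, against 51.0% of all. Arrays of the shS100A10_1 and shNCT groups did not overlap for DICER1 and AGO2, both higher, which is 2 of 9 against 42.4% of all probe sets (21.9% higher). Both hairpin comparisons share the same 2 control arrays, so they are not independent of each other.

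**Figure D1:**
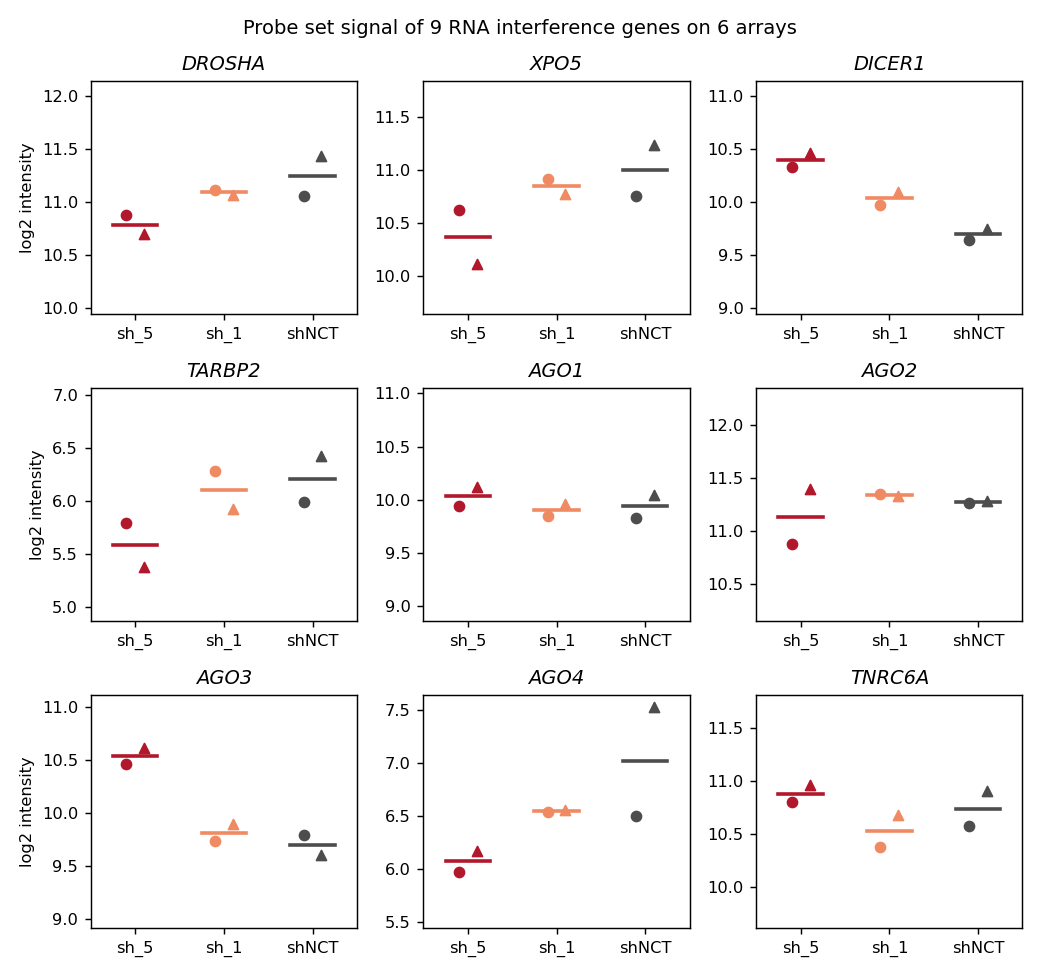
Log2 intensity (vertical axis, each panel spanning the same number of log2 units) of the 9 measured RNA interference genes by group, where sh_5 and sh_1 are shS100A10_5 and shS100A10_1. Circles are replicate 1, triangles replicate 2 and bars the mean of the 2 arrays; AGO3 and DICER1 sit highest with shS100A10_5, and AGO4 in shNCT replicate 2 lies apart from replicate 1.

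The nuclear step was read from DROSHA alone. DROSHA intensity was 1885 and 1665 with shS100A10_5 and 2221 and 2154 with shS100A10_1, against 2134 and 2779 with shNCT. The shS100A10_5 arrays lay below all the others, while shS100A10_1 lay within the range of the controls. DROSHA had a log2 change of -0.46 with shS100A10_5 (SE 0.188, limma adjusted p = 0.198) and of -0.16 with shS100A10_1 (SE 0.188, adjusted p = 0.897). Neither passed the threshold.

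XPO5, the export receptor, had intensities of 1589 and 1113 with shS100A10_5 and 1939 and 1756 with shS100A10_1, against 1735 and 2413 with shNCT. Both shS100A10_5 arrays were the lowest of the 6, and they also differed from each other by 0.51 on the log2 scale. For XPO5 the log2 change was -0.62 with shS100A10_5 (SE 0.227, limma adjusted p = 0.152) and -0.15 with shS100A10_1 (adjusted p = 0.921).

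DICER1, the ribonuclease that cuts both microRNA precursors and vector hairpins, had intensities of 1284 and 1409 with shS100A10_5 and 1003 and 1090 with shS100A10_1, against 799 and 853 with shNCT. It was the 1 gene of the 9 in which all 3 groups were apart, with shS100A10_5 above shS100A10_1 and shS100A10_1 above shNCT. All 3 groups were apart in some order for 15.6% of all probe sets, and in this order for 3.78%. The DICER1 log2 mean was 10.39 ± 0.10 with shS100A10_5 and 10.03 ± 0.08 with shS100A10_1, against 9.69 ± 0.07 with shNCT (SD, n = 2 each). For DICER1 the log2 change was 0.70 with shS100A10_5 (95% interval 0.33 to 1.08; limma adjusted p = 0.0532) and 0.34 with shS100A10_1 (-0.03 to 0.72; adjusted p = 0.64). The step between the hairpins was 0.36 (-0.01 to 0.74; adjusted p = 0.268). Neighbouring groups in this order therefore did not differ past the threshold, and the outermost pair missed it narrowly. DICER1 passed with the dimmest 25% of probe sets left out (adjusted p = 0.0314), with a variance prior that follows intensity (0.0216) and with 1 probe set per gene (0.0498). It moved away from the threshold with array weights (0.0833), the gene span trend removed (0.0692), or without shNCT replicate 1 (0.218), shNCT replicate 2 (0.228) or shS100A10_5 replicate 2 (0.193).

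TARBP2, which binds DICER1 and helps hand the duplex to an Argonaute, had intensities of 55.3 and 41.7 with shS100A10_5 and 77.6 and 60.7 with shS100A10_1, against 63.7 and 85.5 with shNCT. The 2 shS100A10_5 arrays were the lowest of the 6. Its log2 change was -0.62 with shS100A10_5 (SE 0.223, limma adjusted p = 0.147) and -0.11 with shS100A10_1 (adjusted p = 0.949). At log2 5.38 to 6.42, its probe set was among the dimmer ones: the median probe set mean was 7.88.

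Among the Argonautes, AGO3 had intensities of 1411 and 1565 with shS100A10_5 and 851 and 951 with shS100A10_1, against 882 and 777 with shNCT. The shS100A10_5 arrays stood above the other 4, which overlapped each other. AGO3 has slicing activity only with certain guide RNAs. Its log2 level was 10.54 ± 0.11 with shS100A10_5 and 9.81 ± 0.11 with shS100A10_1, against 9.69 ± 0.13 with shNCT (SD, n = 2 each). Its log2 change with shS100A10_5 was 0.84 (95% interval 0.45 to 1.23; limma adjusted p = 0.0354), and with shS100A10_1 it was 0.12 (-0.27 to 0.51; adjusted p = 0.919). The difference between the hairpins, 0.72 (0.34 to 1.11), had an adjusted p of 0.0571 by limma and so did not pass.

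The AGO3 call rests on few arrays. It was lost without shNCT replicate 1 (log2 change 0.94, limma adjusted p = 0.123), shNCT replicate 2 (0.75, 0.23) or shS100A10_5 replicate 2 (0.77, 0.177), fits that leave a group with 1 array and assume it varies like the others, and with array weights (0.84, 0.0609). AGO3 is a long gene, with a span of 142 kb, longer than 88.6% of the genes measured. The median span was 71.8 kb for the measured members and 26.6 kb for all measured genes. Longer genes tended to lie above their 6-array mean on shS100A10_5 replicate 2 (Spearman's rho 0.247 across 15674 probe sets, given as a description). The rho was 0.035 on shS100A10_5 replicate 1, -0.207 and -0.007 on the shS100A10_1 arrays and -0.135 and -0.061 on the shNCT arrays. After each array was detrended on gene span, the AGO3 change was 0.74 (adjusted p = 0.0487).

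AGO2, the Argonaute that slices perfectly matched targets and so executes most vector-hairpin knockdown, had intensities of 1875 and 2675 with shS100A10_5 and 2612 and 2566 with shS100A10_1, against 2452 and 2486 with shNCT. The shS100A10_5 arrays lay on either side of all the others. AGO2 had a log2 change of -0.14 with shS100A10_5 (95% interval -0.58 to 0.30; limma adjusted p = 0.736) and 0.07 with shS100A10_1 (-0.37 to 0.51; adjusted p = 0.967). These intervals do not show that its level was equal among groups.

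AGO1, which represses without slicing, had intensities of 980 and 1113 with shS100A10_5 and 916 and 997 with shS100A10_1, against 910 and 1050 with shNCT. The 3 groups overlapped. AGO1 had a log2 change of 0.10 with shS100A10_5 (-0.30 to 0.49; limma adjusted p = 0.805) and -0.03 with shS100A10_1 (-0.42 to 0.36; adjusted p = 0.986).

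AGO4, the remaining Argonaute, had intensities of 62.5 and 71.8 with shS100A10_5 and 93.4 and 94.2 with shS100A10_1, against 90.6 and 184.6 with shNCT. The shS100A10_5 arrays were the lowest, but the 2 control arrays differed from each other by 1.03 on the log2 scale. At log2 5.97 to 7.53, the AGO4 probe set was among the dimmer ones, below the median probe set mean of 7.88. The log2 change was -0.95 with shS100A10_5 (95% interval -1.58 to -0.32; limma adjusted p = 0.0965) and -0.46 with shS100A10_1 (-1.09 to 0.17; adjusted p = 0.728). Without shNCT replicate 2 the shS100A10_5 change was -0.43, and without replicate 1 it was -1.46. AGO4 passed with a variance prior that follows intensity (adjusted p = 0.048), and its adjusted p over all alternatives ran up to 0.473.

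TNRC6A, the GW182 protein that links Argonautes to message decay, had intensities of 1784 and 1987 with shS100A10_5 and 1332 and 1643 with shS100A10_1, against 1517 and 1914 with shNCT. The control range overlapped both hairpin groups. The log2 change was 0.14 with shS100A10_5 (limma adjusted p = 0.722) and -0.20 with shS100A10_1 (adjusted p = 0.852).

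**Figure D2:**
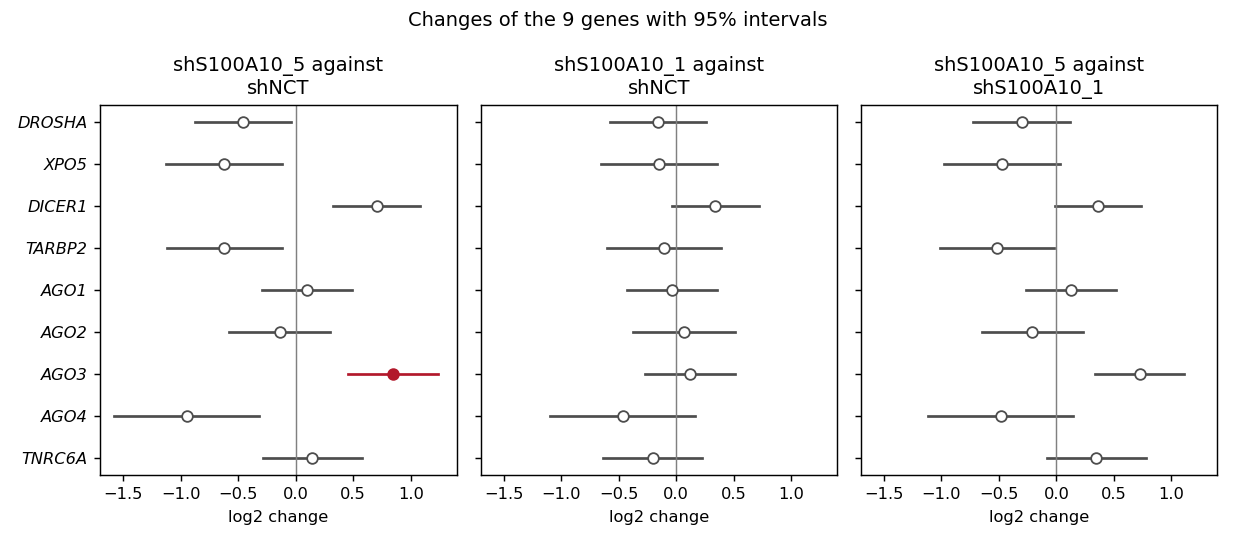
Log2 change (horizontal axis) of each gene with its 95% interval from the limma fit, for shS100A10_5 against shNCT, shS100A10_1 against shNCT, and shS100A10_5 against shS100A10_1. Filled red marks an adjusted p under 0.05, which AGO3 alone reached, with shS100A10_5; the shS100A10_1 intervals all include 0.

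Of the 4 Argonautes, AGO3 alone passed with shS100A10_5, and no difference between Argonautes was tested. The log2 ratio of the AGO3 to the AGO1 signal on the same array was 0.53 and 0.49 with shS100A10_5 and -0.11 and -0.07 with shS100A10_1, against -0.04 and -0.43 with shNCT. For AGO3 over AGO2 it was -0.41 and -0.77 with shS100A10_5 and -1.62 and -1.43 with shS100A10_1, against -1.47 and -1.68 with shNCT. For AGO3 over AGO4 it was 4.50 and 4.45 with shS100A10_5 and 3.19 and 3.34 with shS100A10_1, against 3.28 and 2.07 with shNCT. The shS100A10_5 arrays stood above the other 4 in each ratio, but all 3 ratios share the AGO3 signal, which already did so, and are a description only. A ratio of 2 probe sets is read here only across arrays, since its own size depends on the probes. With 2 arrays against 2, an exact permutation test cannot give a p below 0.333, so none is given. Probe sequences were not used here, and signal shared between probes of these related genes could not be separated.

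Along the chromosome, the measured genes before AGO4 were PSMB2, a proteasome subunit, and CLSPN, the replication checkpoint protein claspin. Those after AGO3 were TEKT2, a tektin of cilia, and ADPRS, an ADP-ribose hydrolase. With shS100A10_5, log2 changes in this order were -0.04 for PSMB2, -0.02 for CLSPN, -0.95 for AGO4, 0.10 for AGO1, 0.84 for AGO3, 0.03 for TEKT2 and -1.23 for ADPRS. Of these 7, only AGO3 passed the threshold by limma, as did 3.18% of all probe sets, and ADPRS lay just outside it (adjusted p = 0.0527). The 7 were chosen around AGO3, whose call is the one given above, so this count is not a further result. ADPRS intensity was 233 and 117.1 with shS100A10_5 and 360 and 320.9 with shS100A10_1, against 331.3 and 454.7 with shNCT. With shS100A10_1 the changes of the 7 ran between -0.46 and 0.12, and 0 of 7 passed, against 0.189% of all probe sets.

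**Figure D3:**
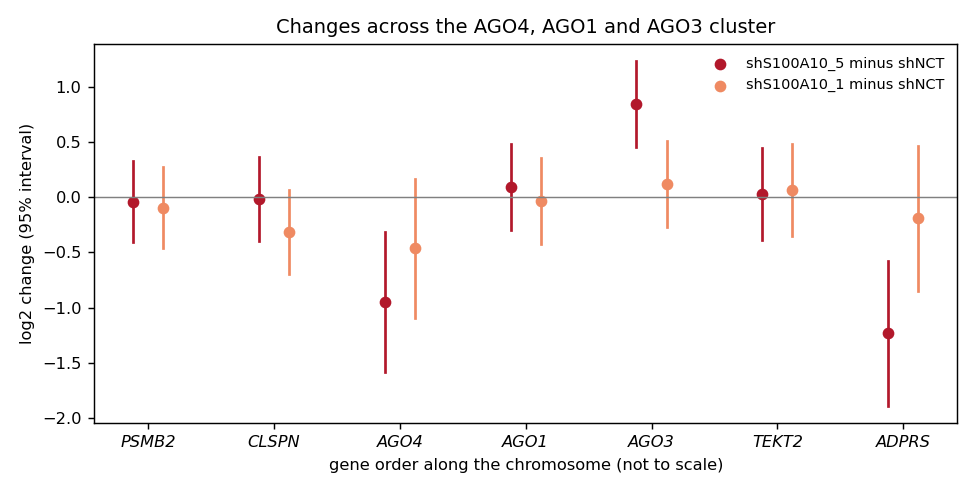
Log2 change with its 95% interval (vertical axis) for the AGO4, AGO1 and AGO3 cluster and the 2 measured genes on each side, in chromosome order. Red points are shS100A10_5 minus shNCT and orange points shS100A10_1 minus shNCT; AGO3 is the 1 gene whose shS100A10_5 interval lies wholly above 0, while those of AGO4 and ADPRS lie wholly below.

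Between the 2 hairpins, 0 of the 9 genes differed past limma's threshold, against 2.91% of all probe sets. Without adjustment, 2 had a p under 0.05, against 19.9%. They were AGO3, higher with shS100A10_5 as were 10.1% of all, and TARBP2, lower as were 9.8% (log2 difference -0.51, SE 0.223, adjusted p = 0.235). The arrays of the hairpin groups did not overlap for 7 of the 9 genes, against 49.0% of all probe sets. DICER1, AGO3 and TNRC6A were higher with shS100A10_5 (25.6% of all), and DROSHA, XPO5, TARBP2 and AGO4 were lower (23.4% of all). Of the 9 differences 4 were positive, against 52.0% of all. The TNRC6A difference was 0.35 (95% interval -0.08 to 0.78) and that of XPO5 was -0.47 (-0.98 to 0.03). AGO3 did pass with the dimmest 25% of probe sets left out (adjusted p = 0.035) or with a variance prior that follows intensity (0.023), while its adjusted p over all alternatives ran up to 0.285.

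With both hairpins averaged and set against the control, 0 of the 9 genes passed limma's threshold, against 0.307% of all probe sets. Without adjustment, 3 had a p under 0.05 (2 higher, against 6.78% of all, and 1 lower, against 6.95%), together against 13.7%. Of the 9 changes 3 were positive, against 52.3% of all. The 3 genes with an unadjusted p under 0.05 were DICER1 (log2 change 0.52, SE 0.147, adjusted p = 0.19), AGO3 (0.48, SE 0.152, adjusted p = 0.222) and AGO4 (-0.71, SE 0.246, adjusted p = 0.262).

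The control arrays differed from each other in these genes. In shNCT, 8 of the 9 had a higher value on replicate 2 than on replicate 1, with a median difference of 0.335 on the log2 scale, while 50.3% of all probe sets did, with a median of 0.0023. The exception was AGO3 (-0.18). In shS100A10_5, 6 of the 9 were higher on replicate 2, against 52.5% of all probe sets, and in shS100A10_1 5 were, against 52.9%. For the 4 genes lower with shS100A10_5, the change therefore depended on which control was used. Without shNCT replicate 2 it was -0.27 for DROSHA, -0.38 for XPO5, -0.41 for TARBP2 and -0.43 for AGO4. Without shNCT replicate 1 it was -0.65, -0.86, -0.83 and -1.46 for the same genes. All 4 changes were negative in both fits and passed limma's threshold in neither. For DICER1 the changes without these controls were 0.75 and 0.66.

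**Figure D4:**
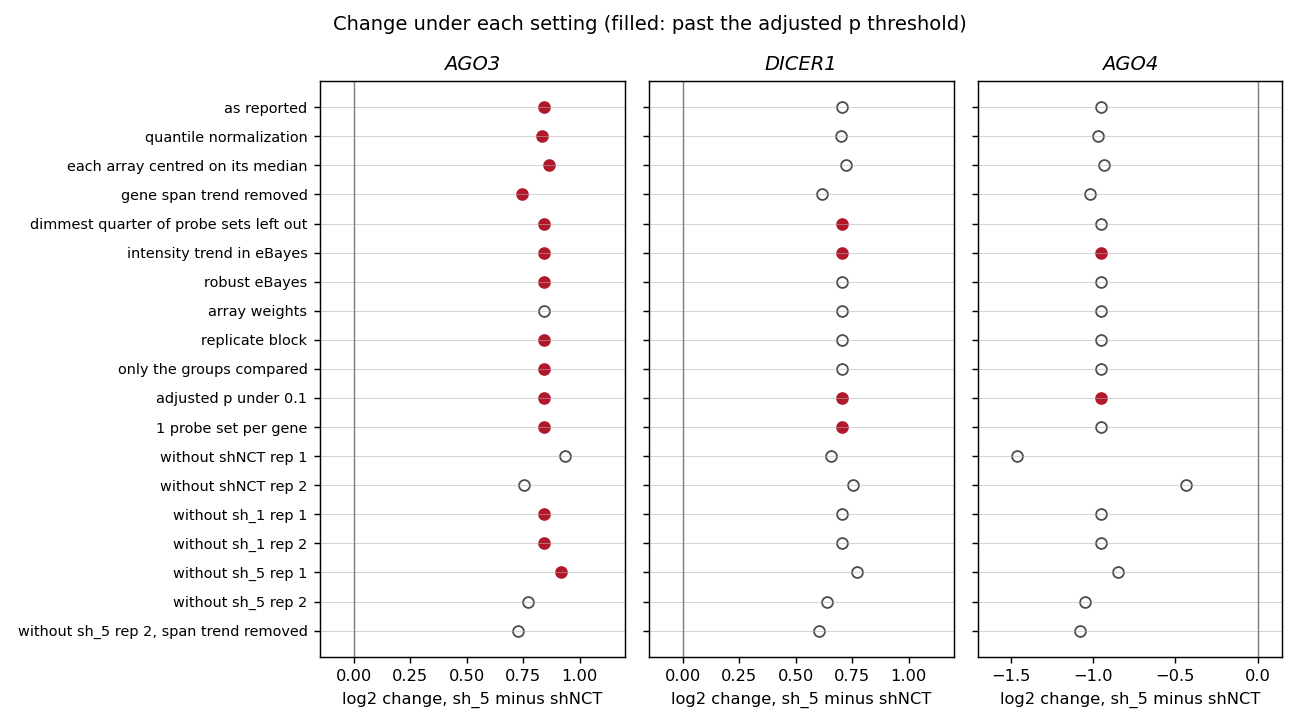
Log2 change of AGO3, DICER1 and AGO4 with shS100A10_5 against shNCT (horizontal axis) under the reported fit and each alternative (rows, where sh_5 and sh_1 stand for the hairpins and rep for replicate). Filled red marks a value past the adjusted p threshold of that setting. The sign held in every row for these 3 genes, while AGO4 spread from -1.46 to -0.43. Rows that alter only weights, variance prior, block, threshold, probe sets kept or arrays outside the contrast repeat the reported change. Their sign could not differ.

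The profile of AGO3 over the 6 arrays was compared with 15230 other named probe sets, each centred on its own mean. The nearest, by Euclidean distance in log2 units, were NMD3, an export adaptor of the large ribosomal subunit (0.104), the J-domain gene DNAJC25 (0.141), the membrane protein gene TMEM45A (0.156), the zinc finger repressor gene ZNF350 (0.174) and the interferon-induced restriction gene SAMD9L (0.184). NMD3 intensity was 2369 and 2648 with shS100A10_5 and 1552 and 1593 with shS100A10_1, against 1538 and 1344 with shNCT. Of the RNA interference genes, DICER1 was nearest to AGO3, at 0.416, with 326 probe sets closer. AGO4 was the farthest, at 2.02, with 15029 closer. With 6 arrays in 3 groups, many genes share such a profile.

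Wider lists of genes that work with this machinery held 97 genes, of which 78 were measured. With shS100A10_5, 1 rose and 1 fell past limma's threshold, 2 of 78 against 3.18% of all probe sets, and 18 had an unadjusted p under 0.05 (10 higher, 8 lower), against 21.0%. With shS100A10_1, 0 passed and 4 had an unadjusted p under 0.05, against 8.44%. The median log2 change was 0.04 with shS100A10_5 and 0.03 with shS100A10_1, close to the 0.025 and 0.006 of all probe sets.

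TUT7, a uridylyl transferase that tails microRNA precursors, was the gene that rose. Its intensity was 1317 and 1966 with shS100A10_5 and 1026 and 1101 with shS100A10_1, against 828 and 857 with shNCT. All shS100A10_5 values were above the others, and both shS100A10_1 values were above the controls. TUT7 had a log2 change of 0.93 with shS100A10_5 (SE 0.209, limma adjusted p = 0.0441) and 0.34 with shS100A10_1 (adjusted p = 0.734). It did not pass without shS100A10_5 replicate 2 (0.64, adjusted p = 0.192), without shNCT replicate 1 (0.169) or 2 (0.209), with array weights (0.0609) or with the gene span trend removed (0.0505). In the same list of 11 export and precursor genes, changes with shS100A10_5 were 0.53 for the nucleotidyl transferase gene TENT2, 0.54 for the nuclear pore gene RANBP2 and -0.62 for RANGAP1, which drives the Ran cycle that exportins use. Their adjusted p ran between 0.157 and 0.17.

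GEMIN4, which was described in complexes with Argonaute and the SMN protein, was the gene that fell. Its intensity was 1225 and 883 with shS100A10_5 and 1641 and 1782 with shS100A10_1, against 1813 and 2095 with shNCT. The groups stood apart in that order. The log2 change was -0.91 with shS100A10_5 (SE 0.201, limma adjusted p = 0.043) and -0.19 with shS100A10_1 (adjusted p = 0.877). It did not pass without shS100A10_5 replicate 2 (-0.67, adjusted p = 0.193), without shNCT replicate 1 (0.132) or 2 (0.253), or with array weights (0.0654). Others of this list of 19 loading factors and partners had changes of 0.48 for LIMD1, 0.61 for TSNAX and -0.26 for the helicase gene MOV10 with shS100A10_5 (adjusted p from 0.158 to 0.461), and MOV10 had -0.51 with shS100A10_1 (adjusted p = 0.44).

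Of the silencing effectors, 24 were measured, mostly deadenylation, decapping and decay factors, with TNRC6B and TNRC6C, the relatives of TNRC6A, among them. None passed limma's threshold in any of the 4 comparisons, where at most 3.18% of all probe sets did. With shS100A10_5, 7 of 24 had an unadjusted p under 0.05 (4 higher, 3 lower), near the 21.0% of all probe sets. The decapping enzyme gene DCP2 had intensities of 790 and 976 with shS100A10_5 and 461 and 619 with shS100A10_1, against 537 and 413 with shNCT, a log2 change of 0.90 with shS100A10_5 (limma adjusted p = 0.0537). CNOT4 had 0.86 (adjusted p = 0.0619) and the decapping enhancer gene EDC3 had -0.57 (adjusted p = 0.0939). Of 14 microprocessor and nuclear cofactors, 0 passed in any comparison by limma, against at most 3.18% of all probe sets. With shS100A10_5, 2 of 14 had an unadjusted p under 0.05, no larger a share than the 21.0% of all probe sets. These were the cap-binding gene NCBP2 (0.49, adjusted p = 0.133) and EWSR1 (-0.41, adjusted p = 0.191), while the helicase gene DHX9 had -0.28 (adjusted p = 0.43).

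**Figure D5:**
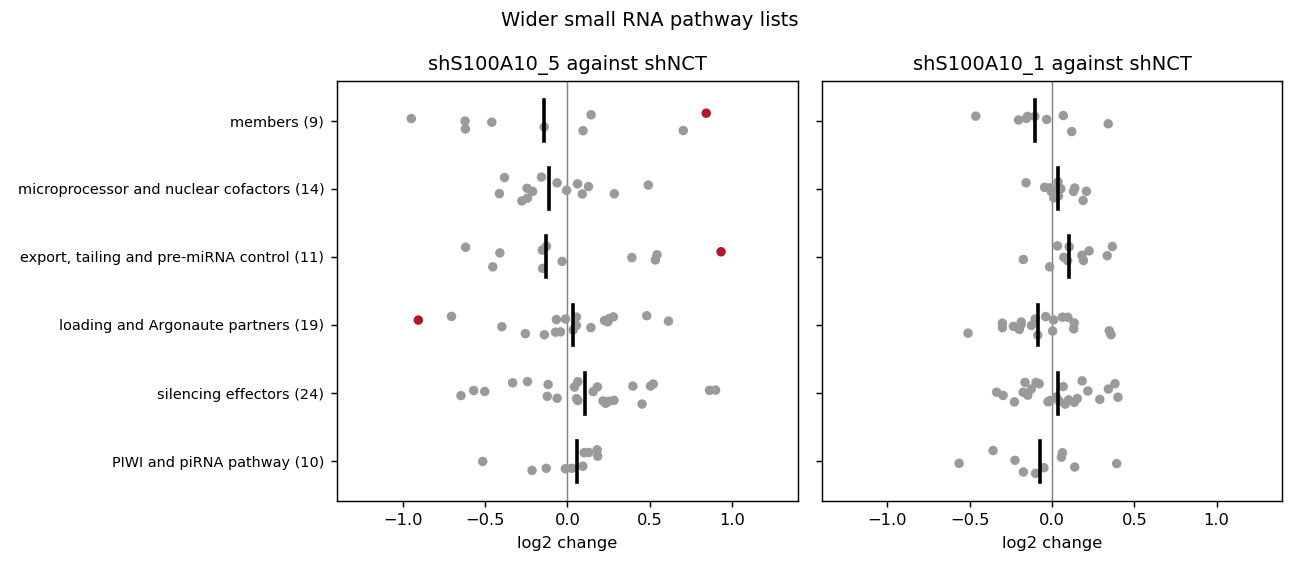
Log2 change (horizontal axis) of each measured gene of the 9 members and of the wider small RNA lists, with the number measured in brackets, for shS100A10_5 (left) and shS100A10_1 (right) against shNCT. Each point is a gene, black bars are list medians and red points passed the adjusted p threshold: AGO3, TUT7 and GEMIN4 with shS100A10_5 and no gene with shS100A10_1.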

How the data were processed

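Biotin-labelled cDNA from total RNA was read on cartridge arrays, per the labels' protocols. The authors deposited linear intensity values, 1 for each probe set on each array, made with Transcriptome Analysis Console per the submitters' processing notes. How that software was set for background, summarization and normalization, and its version, was not stated in the labels. The table used here has no detection calls, scan dates or replicate cultures.

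Deposited intensities of 16965 probe sets on 6 arrays were log2-transformed and otherwise left as deposited. Probe sets were named from the platform annotation and matched by gene identifier to RefSeq (GRCh38.p14), giving 15674 with 1 symbol and 1291 without. The array's build was not named, so only sequence windows have coordinates. Groups follow the sample titles. Group means were estimated jointly from the 6 arrays by limma 3.58.1 under R 4.3.3 (lmFit, eBayes; 3 residual and 7.16 prior degrees of freedom), and 4 contrasts were tested, two-sided, with Benjamini-Hochberg adjustment over all probe sets and a threshold of 0.05. Intervals are 95% moderated intervals. The fit was tested on simulated data. The number of arrays limits the precision.

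Named genes were S100A10, all members by their brightest probe set, and the called genes of each wider list plus its 3 genes of lowest p in the mean-of-hairpins contrast. They also included 2 measured neighbours on each side of the AGO cluster and the 5 profiles nearest to AGO3. Called cell markers were added after their values were seen. The members and lists were chosen with earlier results of these data known. Alternatives covered normalization, centring, gene span, dim probe sets, variance prior, array weights, replicate block, samples in the fit, threshold, probe sets per gene and each array left out.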

Additional observations from a re-analysis of the deposited data

Results flagged for a closer look

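Among S100A10, the members, the other named pathway genes and the called markers, 2 genes differed between the hairpins past the threshold. Over all probe sets, 2.91% did. Markers were named because they passed in some comparison, and TFF1 passed in this one alone, so the count is fixed in part by that choice. For the targeted gene S100A10 the log2 difference between shS100A10_5 and shS100A10_1 was 2.70 (limma, adjusted p = 0.00102). TFF1, a luminal epithelial marker, had intensities of 27.3 and 31.1 with shS100A10_5 and 16.9 and 14.8 with shS100A10_1, against 14.4 and 19.95 with shNCT, and a log2 difference between the hairpins of 0.884 (limma, adjusted p = 0.0489). Its probe set was dim, at log2 3.85 to 4.96, below the lower quartile of probe set means of 4.98. No detection call says whether such levels are background.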

How the results depend on the processing

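Of 716 log2 changes under alternative settings, 670 kept both direction and side of the threshold. Of the rest, 18 lost the call, 9 gained it and 19 changed sign, and the cause was not tested. Array weights, the variance prior, the replicate block, the threshold, the probe sets kept and arrays outside a contrast left the change itself as it was. In those settings the direction was fixed in advance, so the 670 do not measure robustness. With shS100A10_5 the number of members called, 1 as reported, was 2 with the dimmest 25% left out or 1 probe set per gene, 3 with an intensity trend or a threshold of 0.1, 0 with array weights and 0 to 1 with an array left out. It was 0 with shS100A10_5 replicate 2 left out and the span trend removed together, a setting chosen after seeing the data. Between the hairpins it was 1 (AGO3) with the dimmest 25% left out, an intensity trend or a threshold of 0.1, and otherwise 0. The replicate number as a block left 1 member called (AGO3, limma adjusted p = 0.0382) and 625 against 539 probe sets. Across probe sets, replicate 2 minus replicate 1 correlated at r = -0.02 between shS100A10_1 and shNCT and -0.03 between shS100A10_5 and shNCT. Between the 2 hairpin groups r was 0.19. Whether same-numbered arrays were handled together cannot be told from these values. Only the groups compared could not be varied for the mean of both hairpins.

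Sign changes were all in genes not called. For AGO1 the change was -0.028 with shS100A10_5 in that combined setting, and -0.0092 for the mean of both hairpins with the span trend removed. With an array left out, ranges were, for shS100A10_1, -0.136 to 0.0711 (AGO1), -0.977 to 0.0501 (AGO4), -0.346 to 0.0351 (DROSHA), -0.387 to 0.0891 (XPO5) and -0.318 to 0.107 (TARBP2). For shS100A10_5 they were -0.0085 to 0.199 (AGO1), -0.397 to 0.116 (AGO2) and -0.0236 to 0.312 (TNRC6A). Between the hairpins AGO2 ran from -0.465 to 0.0472. For the mean they were -0.0724 to 0.135 (AGO1), -0.164 to 0.0919 (AGO2) and -0.198 to 0.138 (TNRC6A).

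Over all settings the median change of the members ran from -0.375 to 0.115 with shS100A10_5, -0.318 to 0.0711 with shS100A10_1, -0.312 to 0.0472 between hairpins and -0.198 to 0.00888 for the mean. Probe sets called ran from 3 to 1454 (539 as reported), 8 to 98 (32), 7 to 1144 (494) and 6 to 218 (52) in the same order. GEMIN4 also lost its call with quantile normalization (adjusted p = 0.05) and the span trend removed (0.0531). Dim probe sets such as TARBP2 and AGO4 have no background measure.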

Other observations

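Of 14 genes of the PIWI and piRNA pathway, which silences transposons in the germ line, 10 were measured. None passed limma's threshold in any of the 4 comparisons, against at most 3.18% of all probe sets. At an unadjusted p under 0.05, 0 of 10 passed with shS100A10_5 (21.0% of all probe sets), 1 with shS100A10_1 (8.44% of all) and 2 between the hairpins (19.9% of all), the last 2 counts near those shares. MAEL, which acts in piRNA production, had intensities of 34.98 and 31.0 with shS100A10_5 and 21.7 and 20.1 with shS100A10_1, against 30.2 and 31.6 with shNCT. Both shS100A10_1 arrays were the lowest of the 6, while shS100A10_5 overlapped the controls. Its log2 difference between shS100A10_5 and shS100A10_1 was 0.66 (limma, adjusted p = 0.0685). TDRD9 had a log2 change of 0.18 with shS100A10_5 and 0.39 with shS100A10_1, and DDX4 had -0.13 and -0.23 in the same order. All 3 were dim, at or below log2 5.13 on every array.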
